A study of Mus musculus with 8 samples.

Results

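The 10 genes described here carry out cystine uptake, glutathione synthesis and recycling, and thioredoxin-dependent reduction in C2C12 cells, a mouse myoblast line. They were picked by name, as Slc7a11, Gclc, Gclm, Gss, Gsr, Txn1, Txnrd1, Srxn1, Prdx1 and Gpx4, out of 35976 genes in the deposited table, and all 10 were found there under those symbols. The choice was made with the difference between the Atad2 shRNA and control shRNA libraries already known, so the members' own differences are given as a description, without a test. Total RNA was sequenced in 8 libraries: 4 from cells that received an shRNA against Atad2, which encodes a bromodomain ATPase of chromatin, and 4 from cells that received a non-targeting shRNA. All cells were lysed 48 h after transfection. A single line was used, and the labels give neither the number of shRNA sequences used against Atad2 nor a separate culture for each library. The p-values therefore rest on the spread between these 8 libraries, which may be technical.

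Cells take up cystine, the oxidised dimer of cysteine, through an exchanger that exports glutamate, and reduce it to cysteine inside the cell. Cysteine limits the making of glutathione, a tripeptide that enzymes use to reduce peroxides and to conjugate electrophiles. The thioredoxin system runs beside it: thioredoxin reduces protein disulfides and peroxiredoxins, and thioredoxin reductase restores thioredoxin with NADPH. Several genes of both systems are known targets of the transcription factor NRF2, which binds antioxidant response elements, and Slc7a11 is also a known target of ATF4, which binds C/EBP-ATF response elements.

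Levels are given as log2(normalized count + 1), the scale of the deposited values, and differences as Atad2 shRNA minus control shRNA on that scale, with the standard error of the fit. The added 1 makes the change of weakly expressed genes look smaller than it was. The recovered depth was 50317442 to 72279972 reads in the Atad2 shRNA libraries and 61357573 to 73008936 reads in the control shRNA libraries. Genes with at least 1 read numbered 17544 to 17894 in the Atad2 shRNA libraries and 18845 to 18939 in the control shRNA libraries, and the part this plays in the results was not tested. The knockdown target Atad2 stood at 11.87, 11.76, 12.05 and 12.05 in the Atad2 shRNA libraries and at 14.66, 14.74, 14.67 and 14.60 in the control shRNA libraries, 6.66-fold lower (limma adjusted p = 4.6e-20). The 8 myoblast markers examined had a summed normalized count of 59478 to 65289 in the Atad2 shRNA libraries and 55650 to 59273 in the control shRNA libraries, a sum in which Des, the most abundant of them, weighs most. Of these markers 3 were called higher and 5 lower, while 30.8% of all genes tested were called higher and 29.6% lower. Des, Myod1 and Itga7 were the higher ones, by at most 1.30-fold, and Myf5 was 2.42-fold and Cdh15 1.94-fold lower. Chrna1 and Vcam1 were lower by less than 1.2-fold. Pax7, the fifth lower marker, had 0 to 12 reads per Atad2 shRNA library, none of them in replicate 4, and 19 to 41 per control shRNA library, and passed the filter on low values only through the controls. The 7 macrophage markers summed to 567 to 698 in the Atad2 shRNA libraries and 288 to 333 in the control shRNA libraries. Most of this was Cd68, which was called 2.25-fold higher (limma adjusted p = 1.4e-08). Csf1r had 34 to 53 reads per Atad2 shRNA library and 10 to 43 per control shRNA library. Cx3cr1 had 14 to 29 and 33 to 44, and neither was called. Adgre1 had no read in any library. Endothelial, adipocyte and epithelial markers (5 each) summed to at most 83.5 in any library. Adipoq and Epcam had no read in any library, but other markers of these lists had reads. The epithelial marker Cdh1 had 2 to 15 reads per Atad2 shRNA library and 46 to 86 per control shRNA library. The adipocyte marker Fabp4 had 4 to 15 and 29 to 43. Both were called lower (limma adjusted p = 0.0016 for Fabp4), but Cdh1 passed the filter on low values only through the controls. No endothelial marker was called. The part that these differences in markers play in the results was not tested. In bulk RNA, fewer cells of a type and less RNA per cell cannot be told apart.

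The promoters of 8 members were in the RefSeq table (GRCm38.p6), as 13 windows that run from 250 bases before to 50 bases after a transcription start. They were searched on both strands for TGACNNNGC, the core of the antioxidant response element, and for TGATGNAA, the core of the C/EBP-ATF response element. TGACNNNGC was found in 4 of these 8 members, Gclm, Txnrd1, Srxn1 and Prdx1, and in 13.99% of the 27025 genes with a window (12.4% of all 32851 windows). TGATGNAA was found in Slc7a11 alone among the members, and in 4.51% of genes with a window (3.97% of all windows). The Slc7a11 window held it at 2 places, 1 on each strand, and 23 of the 32851 windows held it at 2 or more places. These 5 windows are shown because they hold the matches, which are in capitals. For Slc7a11, Gclm, Txnrd1 (the second of its 3 RefSeq starts) and Prdx1 the 150 bases before the start are printed, and for Srxn1 29 bases around a match that lies after the start, each read 5′ to 3′ along the gene.
Slc7a11 (chr3:50443614-50443763, - strand): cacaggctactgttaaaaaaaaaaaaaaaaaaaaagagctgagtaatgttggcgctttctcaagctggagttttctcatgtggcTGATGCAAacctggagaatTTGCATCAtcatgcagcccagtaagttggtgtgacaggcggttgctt
Gclm (chr3:122245407-122245556, + strand): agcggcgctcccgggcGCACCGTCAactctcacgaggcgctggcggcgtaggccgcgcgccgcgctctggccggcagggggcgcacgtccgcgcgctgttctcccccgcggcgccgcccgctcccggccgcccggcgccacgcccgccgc
Txnrd1 (chr10:82859056-82859205, + strand): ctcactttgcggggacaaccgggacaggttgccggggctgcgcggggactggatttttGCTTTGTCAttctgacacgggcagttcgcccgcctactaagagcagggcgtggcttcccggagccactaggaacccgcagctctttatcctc
Prdx1 (chr4:116685449-116685598, + strand): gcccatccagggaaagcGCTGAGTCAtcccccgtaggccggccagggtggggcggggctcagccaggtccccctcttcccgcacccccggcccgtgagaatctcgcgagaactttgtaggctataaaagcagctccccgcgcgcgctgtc
Srxn1 (chr2:152105542-152105570, + strand): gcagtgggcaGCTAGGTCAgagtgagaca
In all 4 TGACNNNGC matches the printed strand shows the reverse complement. The matches began 134 bases before the start in Gclm, 133 before it in Prdx1 and 92 before it in the Txnrd1 window, while that of Srxn1 lay 29 to 37 bases after it. The Prdx1 match overlaps TGAGTCA, the AP-1 motif. The Slc7a11 matches began 66 and 47 bases before the start. No match was found in the windows of Gss, Txn1 and Gpx4. A match is a description of the letters and not evidence of binding.

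**Figure D1:**
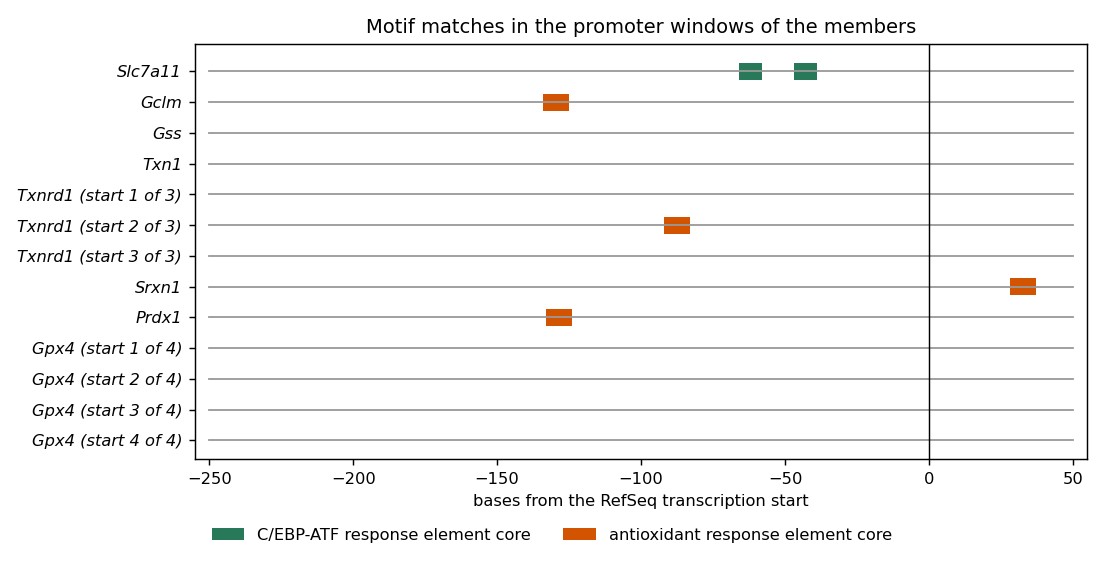
Motif matches in the RefSeq promoter windows of the 8 members that the table holds; the x axis is the distance in bases from each transcription start, each grey line is 1 of 13 windows and each box is 1 match. The antioxidant response element core appears in Gclm, Txnrd1, Srxn1 and Prdx1, and the C/EBP-ATF response element core appears at 2 places in Slc7a11.

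Of the 10 members, 9 were higher in the Atad2 shRNA libraries and 1, Gpx4, was lower. All 10 lay past the threshold used over all genes (limma, Benjamini-Hochberg adjusted p under 0.05), which 60.4% of the 14703 genes tested also passed, 30.8% as higher and 29.6% as lower. Among the 6322 genes whose mean level lay within the range of the members' mean levels, 49.2% were called higher and 22.1% lower. The groups were fully apart for all 10 members, as they were for 53.5% of the genes tested, 27.7% with the Atad2 shRNA libraries on top and 25.8% with them below. A difference of at least 2-fold upward was seen for 5 members, Slc7a11, Txnrd1, Gclm, Gss and Srxn1, and 2.52% of genes were called with such a difference. No member was at least 2-fold lower, as 8.61% of genes were. The median difference over the 10 members was 1.02, against -0.01 over all genes tested. Since the members were chosen on this contrast, these counts describe the list and nothing is read from them. All 10 had a mean level above 9 in each group, so the filter on low values decided none of them.

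**Figure D2:**
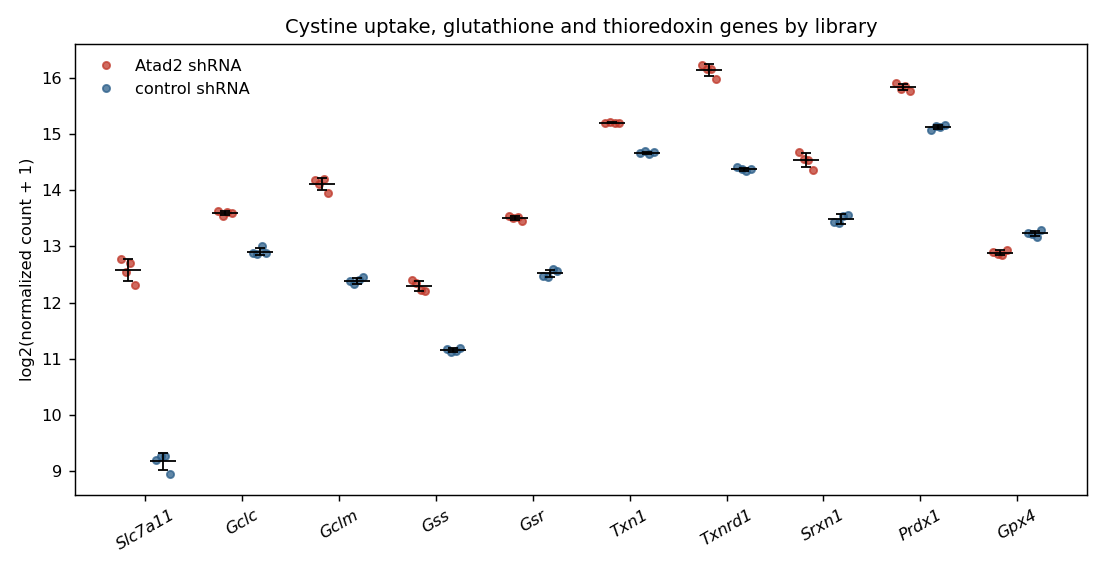
Level of each member in the 8 libraries, as log2(normalized count + 1); points are libraries, Atad2 shRNA left and control shRNA right of each gene name, and bars are the mean ± SD of 4 libraries. The groups are apart for every member, with Gpx4 the one member that is lower in the Atad2 shRNA libraries.

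Slc7a11 encodes xCT, the transport subunit of the cystine and glutamate exchanger (chromosome 3, 49892526 to 50443614, GRCm38, protein-coding). It stood at 12.77, 12.55, 12.70 and 12.32 in the Atad2 shRNA libraries and at 9.19, 9.27, 9.27 and 8.94 in the control shRNA libraries. Every Atad2 shRNA library was far above every control shRNA library, and replicate 4 was the lowest of each group. The difference was 3.42 ± 0.08, or 10.7-fold, with 4431 to 7625 reads per Atad2 shRNA library and 580 to 664 per control shRNA library. With the 14703 genes tested ordered from the largest rise to the largest fall, it ranked 27. The next member, Txnrd1, ranked 150. Slc3a2 encodes the heavy chain that holds xCT at the membrane and that several other amino acid transporters share. It averaged 13.90 ± 0.10 in Atad2 shRNA and 13.42 ± 0.03 in control shRNA libraries (SD, n = 4 each), a rise of 0.48 ± 0.04 (limma adjusted p = 2.1e-09). The ratio of Slc7a11 to Slc3a2 reads within a library, which length does not alter when libraries are compared, was -1.32 ± 0.13 on the log2 scale in Atad2 shRNA and -4.25 ± 0.17 in control shRNA libraries (SD, n = 4 each), a difference of 2.93.

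Glutathione is made by glutamate-cysteine ligase, whose catalytic subunit is encoded by Gclc and whose modifier subunit, which raises the enzyme's affinity for glutamate, by Gclm. Gclc (chromosome 9, 77754535 to 77794485) stood at 13.63, 13.54, 13.62 and 13.59 in Atad2 shRNA libraries and at 12.88, 12.86, 13 and 12.89 in control shRNA libraries. Its values were tight in both groups, and the difference was 0.69 ± 0.03 (1.61-fold). Gclm (chromosome 3, 122245557 to 122270732) stood at 14.19, 14.11, 14.20 and 13.96 in Atad2 shRNA libraries and at 12.38, 12.33, 12.40 and 12.46 in control shRNA libraries, a difference of 1.72 ± 0.04 (3.30-fold). The log2 ratio of Gclm to Gclc reads within a library was 0.52 ± 0.10 in the Atad2 shRNA libraries and -0.51 ± 0.07 in the control shRNA libraries (SD, n = 4 each), so the modifier subunit gene was higher by the larger factor. Per kilobase of exon Gclm stayed below Gclc in both groups. Gss encodes glutathione synthetase, which adds glycine in the second step (chromosome 2, 155563181 to 155592810). It stood at 12.40, 12.35, 12.23 and 12.20 in Atad2 shRNA libraries and at 11.17, 11.12, 11.14 and 11.19 in control shRNA libraries, a difference of 1.14 ± 0.05 (2.21-fold). Of the 5915 exon bases of Gss, 764 are shared with Gssos2, 568 with Acss2 and 322 with Gssos1, all on the other strand, and Acss2 was itself higher (0.88 ± 0.08). No source used here states whether reads were counted by strand, so part of the Gss reads could belong to these genes. Gclm likewise shares 296 of 6291 exon bases with Gm17494 on the other strand and 244 with Gm6061, a processed pseudogene on its own strand.

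Gsr encodes glutathione reductase, which returns oxidised glutathione to its reduced form with NADPH (chromosome 8, 33652523 to 33698163). It stood at 13.55, 13.51, 13.53 and 13.45 in Atad2 shRNA libraries and at 12.48, 12.46, 12.59 and 12.57 in control shRNA libraries. The lowest Atad2 shRNA library was above the highest control, and the difference of 0.99 ± 0.04 (1.98-fold) fell just short of 2-fold. Gpx4 encodes the selenoenzyme that reduces lipid hydroperoxides in membranes with glutathione (chromosome 10, 80047166 to 80056439). It stood at 12.90, 12.86, 12.84 and 12.94 in Atad2 shRNA libraries and at 13.24, 13.23, 13.17 and 13.29 in control shRNA libraries. Each Atad2 shRNA library was thus below every control, by a modest -0.35 ± 0.03 (1.27-fold lower). Gpx4 and Txn1 have processed copies in the mouse genome, so reads could be split between them and their copies.

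Of the thioredoxin system, Txnrd1 encodes the cytosolic thioredoxin reductase, a selenoenzyme (chromosome 10, 82833951 to 82897712). It stood at 16.23, 16.17, 16.17 and 15.99 in Atad2 shRNA libraries and at 14.41, 14.38, 14.34 and 14.38 in control shRNA libraries. The control libraries were within 0.1 of each other, and the difference was 1.76 ± 0.04 (3.39-fold). Its substrate thioredoxin, the product of Txn1 (chromosome 4, 57943373 to 57956411), stood at 15.20, 15.22, 15.20 and 15.20 in Atad2 shRNA libraries and at 14.66, 14.70, 14.64 and 14.68 in control shRNA libraries. This was the smallest upward difference of the 9, at 0.53 ± 0.03 (1.45-fold), with almost no spread between replicates. The log2 ratio of Txnrd1 to Txn1 reads within a library was 0.94 ± 0.10 in the Atad2 shRNA libraries and -0.29 ± 0.03 in the control shRNA libraries (SD, n = 4 each).

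Prdx1 encodes a peroxiredoxin that reduces hydrogen peroxide at the expense of thioredoxin (chromosome 4, 116685544 to 116700822). It stood at 15.91, 15.81, 15.86 and 15.78 in Atad2 shRNA libraries and at 15.08, 15.15, 15.13 and 15.17 in control shRNA libraries, a difference of 0.71 ± 0.03 (1.63-fold). Srxn1 encodes sulfiredoxin, which repairs peroxiredoxins that have been over-oxidised (chromosome 2, 152105516 to 152111376). It stood at 14.69, 14.56, 14.55 and 14.37 in Atad2 shRNA libraries and at 13.43, 13.41, 13.55 and 13.57 in control shRNA libraries, a difference of 1.05 ± 0.05 (2.07-fold). The log2 ratio of Srxn1 to Prdx1 reads within a library was -1.30 ± 0.08 in the Atad2 shRNA libraries and -1.64 ± 0.07 in the control shRNA libraries (SD, n = 4 each), a smaller shift of 0.34.

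**Figure D3:**
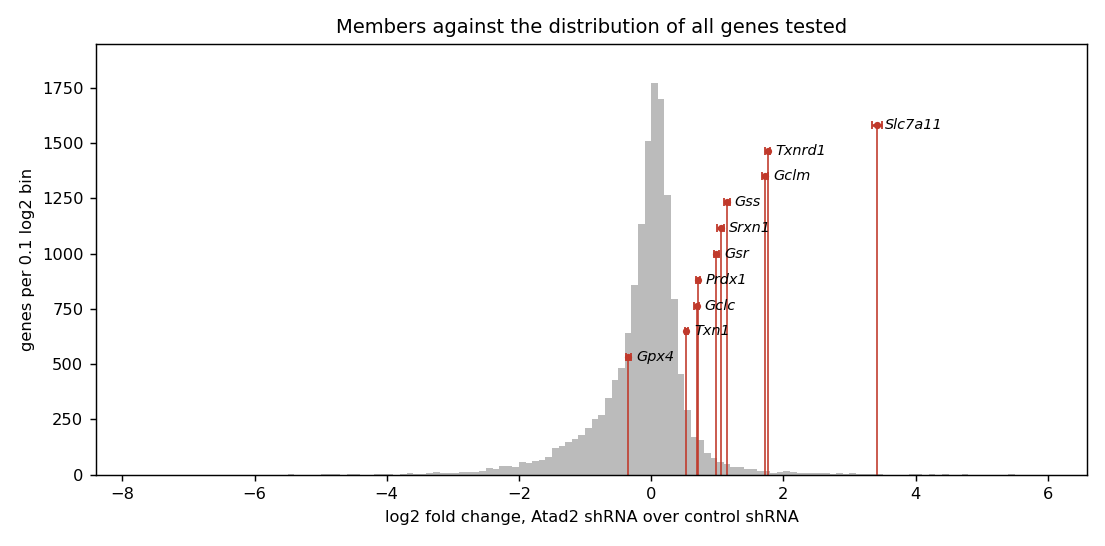
Histogram of the log2 differences (Atad2 shRNA over control shRNA) of all 14703 genes tested, in bins of 0.1, with each member marked at its own difference; the height of a marker has no meaning and its horizontal bar is the SE. Slc7a11 lies at 3.42, Txnrd1 and Gclm lie near each other at 1.76 and 1.72, and Gpx4 lies at -0.35.

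Among the Atad2 shRNA libraries, replicate 4 had the lowest value for 8 of the 9 higher members, the exception being Gclc, and replicate 1 the highest for 7 of them. The share of all genes tested with this order is not given here, so nothing particular to the members is read from it. Without Atad2 shRNA replicate 4 the Slc7a11 difference was 3.50, and without control shRNA replicate 4 it was 3.34. Together the 10 members took 4028, 3866, 3966 and 3677 RPM (the reads of each library scaled to the same total) in the Atad2 shRNA libraries and 2003, 2036, 2054 and 2079 RPM in the control shRNA libraries. Their share of all reads was 1.90 times as large in the Atad2 shRNA libraries.

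Levels can be compared between members only per length, here as normalized counts per kilobase of all annotated exon sequence (GENCODE, GRCm38), which may not be the gene models that were counted. Txn1 was the highest in both groups, at 35876 ± 220 per kb in the Atad2 shRNA and 24775 ± 424 in the control shRNA libraries (SD, n = 4 each), followed by Prdx1. Txnrd1 held place 3 in the Atad2 shRNA libraries (10212 ± 717) and place 5 in the control shRNA libraries (3005 ± 57.9). Gpx4 held place 5 in the Atad2 shRNA libraries (4393 ± 139) and place 3 in the control shRNA libraries (5589 ± 198). Neighbours whose library ranges overlapped were Txnrd1 and Srxn1, and Gpx4 and Gsr, in the Atad2 shRNA libraries, and Gsr and Gclc in the control shRNA libraries. Gclm, Gss and Slc7a11 closed the order in both groups. Slc7a11 stood at 444 ± 58.3 per kb in the Atad2 shRNA libraries and 41.4 ± 4.21 in the control shRNA libraries, with a long annotated exon total of 13922 bases that lowers its value per kb.

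**Figure D4:**
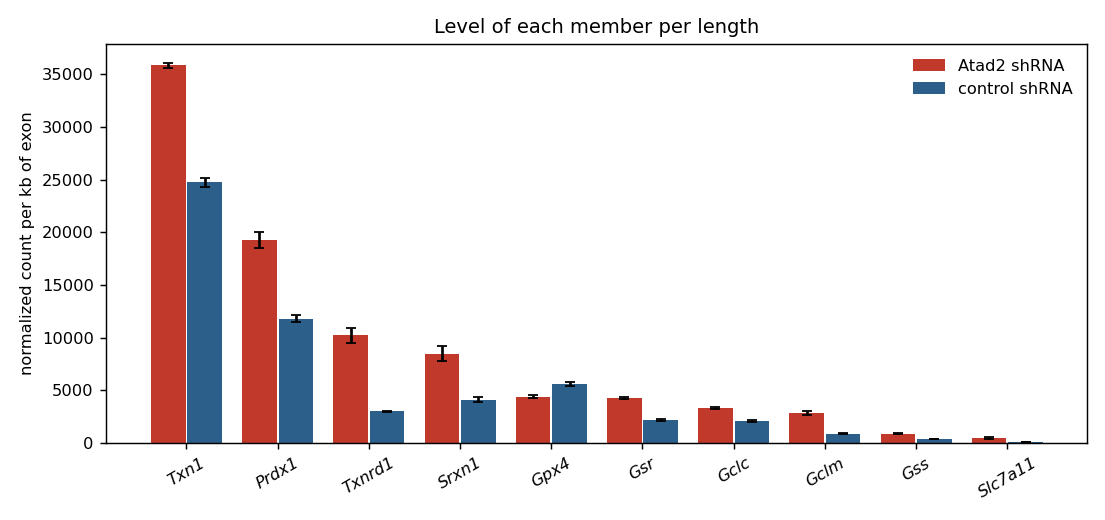
Normalized count per kilobase of annotated exon for each member, as the mean of 4 libraries with SD, Atad2 shRNA left and control shRNA right, ordered by the Atad2 shRNA level. Txn1 and Prdx1 lead in both groups, and Txnrd1 and Gpx4 take different places in the 2 groups.

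The genes whose 8 centred values lay nearest to those of Slc7a11, by root mean square difference on the log2 scale, were Siglec15 (0.185), Gm3776 (0.254), Ush1g (0.254), Gm10639 (0.282) and Gsta1 (0.297). Nearest to Txnrd1 was another member, Gclm (0.05), followed by Alcam (0.05), Baalc (0.07), Nmnat2 (0.08) and Ngef (0.08). With 2 groups of 4 libraries this likeness rests mostly on the size of the difference between groups.

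Other genes of the pathway went in both directions. In 8 lists of genes around the members, which were drawn up with earlier results of these data known and leave the members out, 128 of 141 genes could be tested: 51 rose (39.8%), 39 fell (30.5%) and 38 did not pass. Over all genes tested, 30.8% rose and 29.6% fell. Among genes within the range of the members' mean levels, 49.2% rose and 22.1% fell. The lists were not matched for level, so no excess is read from their counts. Counts and medians below hold for the genes that passed the filter of a mean level above 3, and differences are followed by limma adjusted p-values over all genes tested.

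**Figure D5:**
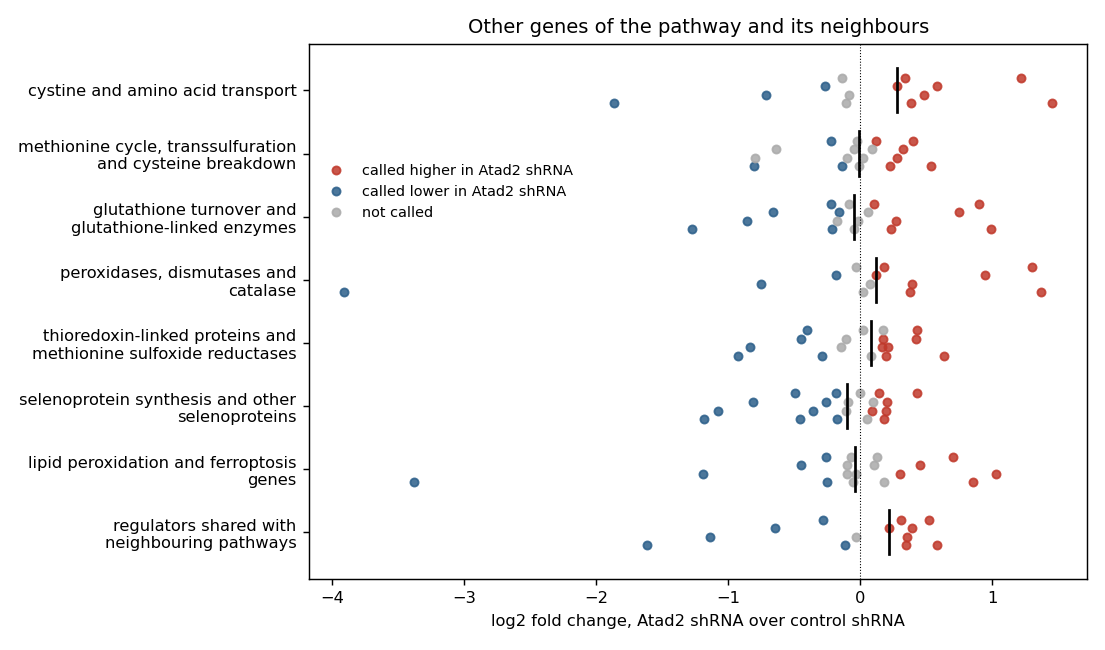
Log2 differences (Atad2 shRNA over control shRNA) of the 128 tested genes in 8 lists around the members; each point is a gene, coloured by its call, and the black bar is the median of the list. The medians lie between -0.10 and 0.28, and each list holds genes called in both directions.

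Of 13 tested genes of cystine and amino acid transport, 7 rose and 3 fell, with a median difference of 0.28. Abcc1, an exporter of glutathione and its conjugates, rose by 1.22 ± 0.03, with 15.12 ± 0.06 in the Atad2 shRNA and 13.90 ± 0.03 in the control shRNA libraries (adjusted p = 2.6e-17). Slc6a9, a glycine transporter, rose by 1.45 ± 0.07, the neutral amino acid transporter gene Slc1a4 by 0.58 ± 0.04 and the glutamine transporter gene Slc38a2 by 0.38 ± 0.03. Slc7a5, whose product also pairs with that of Slc3a2, fell by 0.26 on the log2 scale (SE 0.05, adjusted p = 0.0001), and the glutamate transporter gene Slc1a3 fell by 0.71 (SE 0.14). Slc3a1 fell by 1.87 (SE 0.44, adjusted p = 0.0011), but was weak, at 5 to 12 reads per Atad2 shRNA library and 30 to 36 per control shRNA library. Without Atad2 shRNA replicate 4, 5 genes of the list fell instead of 3, Slc25a40 and Mfsd12 being added.

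Genes of the methionine cycle, transsulfuration and cysteine breakdown gave small differences: 6 of 17 rose, 3 fell and none of the called ones reached 2-fold, with a median of -0.01. Ahcyl2, an S-adenosylhomocysteine hydrolase-like gene, rose by 0.54 ± 0.04, Mat2a, which makes S-adenosylmethionine, by 0.40 ± 0.04, the methionine synthase reductase gene Mtrr by 0.33 ± 0.05 and the sulfite oxidase gene Suox by 0.28 ± 0.05. Cth, which releases cysteine from cystathionine, was weak, at 34 to 55 reads per Atad2 shRNA library and 90 to 101 per control shRNA library, and fell by 0.81 (SE 0.23, adjusted p = 0.0041). Csad, of taurine synthesis, fell by 0.22 (SE 0.07, adjusted p = 0.0081). The calls of Cth and Csad were lost with quantile normalization (adjusted p = 0.172 and 0.0568).

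Among 17 tested genes of glutathione turnover and glutathione-linked enzymes, 6 rose and 6 fell (median -0.05). Chac1, which breaks down glutathione in the cytosol, fell by 1.28 (SE 0.09), to 9.01 ± 0.18 in the Atad2 shRNA libraries, against 10.29 ± 0.10 in the control shRNA libraries (adjusted p = 7.4e-11). Oplah, the oxoprolinase that returns glutamate from the breakdown, fell by 0.66 (SE 0.14). Ggct was also called lower, by 0.86 (SE 0.19, adjusted p = 0.00056). Anpep, an aminopeptidase of the cell surface, rose by 0.90 ± 0.04, the S-formylglutathione hydrolase gene Esd by 0.75 ± 0.03, the leucine aminopeptidase gene Lap3 by 0.27 ± 0.04 and Ggt7, of the gamma-glutamyltransferase family, by 0.99 ± 0.17.

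Of 13 tested peroxidase, dismutase and catalase genes, 7 rose and 3 fell (median 0.12). Catalase (Cat) rose by 1.37 ± 0.05 to 13.25 ± 0.07 in the Atad2 shRNA libraries, against 11.88 ± 0.09 in the control shRNA libraries (adjusted p = 6.7e-16), and Prdx6, a peroxiredoxin that uses glutathione, by 1.30 ± 0.04. Gpx8, of the endoplasmic reticulum, rose by 0.94 ± 0.04 and Sod1, the cytosolic superoxide dismutase, by 0.39 ± 0.03. Sod3, the secreted superoxide dismutase, fell by 3.91 (SE 0.13), with 48 to 86 reads per Atad2 shRNA library and 1130 to 1269 per control shRNA library (adjusted p = 6.4e-16). Gpx1, the abundant cytosolic glutathione peroxidase and like Gpx4 a selenoenzyme, fell by 0.75 (SE 0.04, adjusted p = 1.5e-12).

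In the list of thioredoxin-linked proteins and methionine sulfoxide reductases, 7 of 17 tested genes rose and 5 fell, none of them by 2-fold (median 0.08). Txn2, the mitochondrial thioredoxin gene, rose by 0.42 ± 0.03, Txnrd3 by 0.63 ± 0.06, Txnip, which encodes an inhibitor of thioredoxin, by 0.43 ± 0.05, and the ribonucleotide reductase subunit gene Rrm2 by 0.19 ± 0.04 (adjusted p at most 0.00019). Msrb3, a methionine sulfoxide reductase gene, fell by 0.84 (SE 0.04), and Rrm2b, the p53-induced ribonucleotide reductase subunit, fell by 0.93 (SE 0.06). Arrdc4, a relative of Txnip, did not pass the filter, with 0 to 1 read per Atad2 shRNA library and 10 to 33 per control shRNA library.

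Of 20 tested genes of selenoproteins and their synthesis, 6 rose and 9 fell, with a median of -0.10. Selm fell by 1.19 (SE 0.08), Sepp1, which encodes the secreted selenium carrier selenoprotein P, by 1.08 (SE 0.09), the selenocysteine lyase gene Scly by 0.81 (SE 0.07) and 2700094K13Rik, an older symbol of the selenoprotein H gene, by 0.49 (SE 0.05), with adjusted p at most 1.4e-08. Selk, of the endoplasmic reticulum, rose by 0.43 ± 0.05 and Secisbp2l, a relative of the factor that reads selenocysteine codons, by 0.20 ± 0.03. The selenoenzyme genes among the members stood on opposite sides, Txnrd1 at 1.76 and Gpx4 at -0.35.

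Of 18 tested genes of lipid peroxidation and ferroptosis, the form of cell death that Gpx4 restrains, 5 rose and 5 fell (median -0.04). Acsl4, whose product activates polyunsaturated fatty acids for use in phospholipids, rose by 0.45 ± 0.03, and Por, the cytochrome P450 reductase gene, by 0.70 ± 0.04. Ptgs2, the inducible cyclooxygenase gene, rose by 1.02 ± 0.07 and Pla2g6, a phospholipase gene, by 0.30 ± 0.04. Lpcat3, which acts after Acsl4, fell by 0.25 (SE 0.04) and the desaturase gene Scd2 by 0.26 (SE 0.05), with overlapping groups for Scd2. Alox5, the 5-lipoxygenase gene, was also called lower, but it had 0 to 10 reads per Atad2 shRNA library and 22 to 52 per control shRNA library and passed the filter only through the controls. Alox15 was weak, at 23 to 57 reads per Atad2 shRNA library and 79 to 121 per control shRNA library, and fell by 1.19 (SE 0.27, adjusted p = 0.00068). Mboat1 fell by 0.45 (SE 0.08). Aifm2, which encodes a ferroptosis suppressor that does not use glutathione, did not pass (9.81 ± 0.06 in Atad2 shRNA and 9.87 ± 0.08 in control shRNA libraries, adjusted p = 0.52).

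Among 13 regulators shared with neighbouring pathways, 7 rose and 5 fell, with a median of 0.22. Nfe2l2, the NRF2 gene, rose by 0.34 ± 0.03 to 13.67 ± 0.01 in the Atad2 shRNA libraries, against 13.33 ± 0.07 in the control shRNA libraries, and its partner Mafg rose by 0.39 ± 0.03. Myc and Trp53 rose by 0.52 ± 0.05 and 0.31 ± 0.04 (adjusted p of these 4 at most 3.1e-07). Keap1, Bach1 and Maff also rose, by 0.22 ± 0.04, 0.36 ± 0.04 and 0.58 ± 0.07. Mafk fell by 0.28 (SE 0.07, adjusted p = 0.001). Ddit3 and Cebpg, genes of the ATF4 stress response, moved downward: Ddit3 fell by 1.14 (SE 0.05) and Cebpg fell by 0.65 (SE 0.05), with adjusted p at most 2.6e-10. Atf3 was also called lower, by 1.62 (SE 0.46, adjusted p = 0.0047). It was weak, at 5 to 28 reads per Atad2 shRNA library and 31 to 59 per control shRNA library, and its groups overlapped. Atf4 itself, named after its values were seen, stood at 14.22, 14.09, 14.10 and 14.02 in the Atad2 shRNA libraries and at 14.23, 14.23, 14.22 and 14.22 in the control shRNA libraries (-0.12 ± 0.04, adjusted p = 0.0076), with 1 Atad2 shRNA library inside the control range.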

How the data were processed

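Total RNA of 8 libraries was sequenced on an Illumina NovaSeq, with strand-keeping NEBNext kits, per the labels' protocols. The submitters' processing notes name HTSeq 0.13.5, SAMtools 1.1, bcl2fastq 2.20, DESeq2 and build mm10. No aligner, annotation or strand setting is given in the sources used here. The authors deposited log2(x + 1) values, where x is a size-factor-scaled count, as the values themselves show: once converted back, low values were whole multiples of 1 step in each library (100%, tolerance 0.1 reads). Reads recovered in this way gave depth, RPM and read ranges, and are approximate at high counts. A library with no read of a gene allows up to 3 reads of its total, 0.0411 to 0.0596 RPM, for counting error only.

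Genes with a mean above 3 were fitted with limma 3.58.1 (R 4.3.3, eBayes with trend, no covariates, two-sided) and called at a Benjamini-Hochberg adjusted p under 0.05 over all genes tested. Tables were made with pandas 2.3.3 and NumPy 2.4.6. The members and lists were chosen with earlier results of these data known. Named genes are the members, Atad2, up to 4 called genes per list in its main direction and up to 2 in the other by adjusted p, and the 5 nearest patterns of Slc7a11 and Txnrd1. Where counts were equal, as in glutathione turnover and in lipid peroxidation, higher was taken as the main direction. More rising than falling genes were therefore named by this rule there. Slc3a2, Slc3a1, Acss2, Arrdc4, Ggct, Alox5, Alox15, Mboat1, Slc25a40, Mfsd12, Aifm2, Atf4, Atf3, Keap1, Bach1, Maff, Mafk and the markers were named outside this rule. Some of them were named after their values were seen. Alternatives were quantile normalization, median centring, an offset of 8, other filters (none, or a mean above 5), eBayes without trend, limma-voom on recovered reads, the replicate block, and leaving out each library.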

Additional observations from a re-analysis of the deposited data

Results flagged for a closer look

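In 5 of 120 groups of 4 libraries examined, 1 library stood apart from the other 3 by Dixon's criterion, and chance alone gives about 1 in 20. None of these groups was of a member. Gpx1 was lowest in Atad2 shRNA replicate 3, at 12.07, with the nearest library at 12.22. Sod3 was lowest in Atad2 shRNA replicate 4, at 5.82, with the nearest at 6.31. Scd2 was highest in Atad2 shRNA replicate 4, at 16.05, with the nearest at 15.84. Slc1a4 was highest in Atad2 shRNA replicate 1, at 12.82, with the nearest at 12.72. Sod1 was highest in control shRNA replicate 4, at 13.70, with the nearest at 13.60.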

How the results depend on the processing

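The 10 members kept their direction under all 16 alternatives, and 9 were called higher and 1 lower in each of them. Of 160 recomputed member differences, 152 moved by less than the spread between replicates, and the 8 that moved further were under quantile normalization, with Gclm at 1.61, Txnrd1 at 1.62, Txn1 at 0.41 and Gpx4 at -0.45 there. Leaving out 1 library at a time gave 3.34 to 3.50 for Slc7a11. Over all genes tested, leaving out 1 library gave 4254 to 4573 higher and 4039 to 4401 lower genes, against 4528 and 4352. Of 320 recomputed counts of calls, 319 lay within 1.5 times the reported count. The exception was the number of lower genes in cystine and amino acid transport, 3 to 5 when 1 library was left out, with 5 without Atad2 shRNA replicate 4. Atad2 and the called genes named from the lists by the rule above, 49 in all, gave 784 recomputed values, of which 782 kept their call. The other 2 were those of Cth and Csad under quantile normalization. The nearest-pattern genes and the genes named outside the rule are not among these values. Other scalings moved the median of all tested genes by at most 0.019. Same-numbered libraries did not deviate together (r from -0.02 to 0.03, with 1 of 4 Atad2 shRNA libraries closest to its own number). A fit with the replicate number as a block gave 4562 higher and 4379 lower genes, and kept 9 members higher and 1 lower. Depth limits weak genes such as Cth and Arrdc4 most, and reads recovered from rounded values leave strong genes approximate.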
